A study of Rattus norvegicus with 9 samples.

Results

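The genes described here encode parts of cullin-RING ubiquitin ligases: the F-box proteins named Fbxo, Fbxl or Fbxw, the cullins Cul1, Cul2, Cul3, Cul4a, Cul4b, Cul5 and Cul7, the adaptor Skp1 and the RING protein Rbx1. Members were all probe sets whose single gene symbol in the array's annotation matched one of these names, whatever their signal. A pair of Fbxo genes, Fbxo32 among them, is left out by the same rule. It found 89 of 31042 probe sets, for 60 of 14217 genes: 12 probe sets for 7 cullins, 3 for Skp1 and Rbx1, 13 for 8 Fbxw genes, 23 for 14 Fbxl genes and 38 for 29 Fbxo genes. Skp2 is named by the rule, but its probe set carries another symbol too and was not used here.

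The RNA came from the gastrocnemius, a calf muscle, of male Wistar rats of 250 g, with 1 Affymetrix array per animal and 3 animals in each of 3 groups. The vehicle group received propylene glycol, the solvent that all groups shared. The dexamethasone group received this synthetic glucocorticoid at 0.7 mg/kg/day, and the combination group received the same dose with testosterone, all for 7 days from Alzet pumps. The testosterone dose is 28 mg/kg/day in the sample labels and 20 mg/kg/day in the series design. The comparisons ask what the glucocorticoid does to these genes in muscle and what testosterone adds to it.

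Cullin-RING ligases attach ubiquitin to chosen proteins, mostly to mark them for the proteasome. A cullin is the scaffold: Rbx1 at one end recruits the ubiquitin-loaded enzyme, and an adaptor at the other end holds the substrate receptor. With Cul1 the adaptor is Skp1 and the receptors are F-box proteins, grouped by their substrate-binding part into Fbxw (WD repeats), Fbxl (leucine-rich repeats) and Fbxo (other). In wasting muscle this family is best known for its atrophy-associated members, since breakdown of muscle protein runs largely through ubiquitin and the proteasome.

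Of the 3 genes on which the results turn most, Fbxw7, Fbxl4 and Cul4a, the bases before the annotated transcription start are shown so that the hormone-responsive motifs can be looked for directly. Each window holds 250 bases from RefSeq (build GRCr8) and runs 5′ to 3′ on the gene's strand, with any match to the motifs searched in capitals. The windows are Fbxw7 at chr2:172447488-172447737 (plus strand), Fbxl4 at chr5:40752271-40752520 (plus strand) and Cul4a at chr16:83124458-83124707 (minus strand).
Fbxw7: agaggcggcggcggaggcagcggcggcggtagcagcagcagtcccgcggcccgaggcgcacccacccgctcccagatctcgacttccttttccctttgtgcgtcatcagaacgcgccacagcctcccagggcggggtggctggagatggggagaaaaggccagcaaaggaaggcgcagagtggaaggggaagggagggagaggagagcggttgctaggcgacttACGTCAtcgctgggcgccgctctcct
Fbxl4: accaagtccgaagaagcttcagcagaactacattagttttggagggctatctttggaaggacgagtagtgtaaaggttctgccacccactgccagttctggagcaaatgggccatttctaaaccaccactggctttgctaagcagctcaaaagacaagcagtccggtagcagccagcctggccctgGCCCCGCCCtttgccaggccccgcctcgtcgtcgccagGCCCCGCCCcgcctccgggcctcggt
Cul4a: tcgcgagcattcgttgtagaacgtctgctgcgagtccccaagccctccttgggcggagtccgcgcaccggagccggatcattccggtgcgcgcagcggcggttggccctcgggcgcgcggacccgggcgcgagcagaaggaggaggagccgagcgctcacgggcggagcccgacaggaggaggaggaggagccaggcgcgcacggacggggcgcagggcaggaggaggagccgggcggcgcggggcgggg

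None of these windows held the palindromic glucocorticoid and androgen response element (a pair of AGAACA half-sites facing each other across 3 bases), the half-site AGAACA alone or the FoxO element GTAAACA, on either strand. The capitals in Fbxw7 mark the cAMP response half-site TGACGT on the opposite strand, 26 to 21 bases before the start. Those in Fbxl4 mark a GC box, GCCCCGCCC, at 64 to 56 and again at 26 to 18 bases before the start, and Cul4a had no match. Windows were found for 51 of the 60 genes, 1 start per gene, and the same 250 bases before the start were searched in every gene. Of them 0 held the full response element (0.012% of all 33469 windows), 7 the half-site (13.7%, against 17.5% of all) and 0 the FoxO element (3.21% of all). The half-site letters also lie within the full element.

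Other motifs searched on both strands were TGACGT (in 15.7% of the members' windows and 6.95% of all), GCCCCGCCC (7.84% and 8.88%), CCAAT (25.5% and 34%) and CCGGAAG, an ETS element (17.6% and 7.27%). The full cAMP element TGACGTCA, which contains TGACGT, was in 1 member window (1.59% of all), the E-box CACGTG in 1 (5.59%), TATAAA in 0 (12.9%), the NRF1 element in 6 (3.75%) and the E2F element TTTCGCGC in 1 (0.248%). GC content was 60.4% at the median over the members' windows and 51.2% over all. These matches describe letters and not binding.

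Signals are given as log2(intensity + 16) after quantile normalization, so that a difference of 1 is a doubling, with smaller values understating the change of dim probe sets. The median signal of an array, as deposited, was 25.8 to 131.8, and the normalized arrays correlated at 0.908 to 0.965 with one another. The arrays fell into 3 classes by how they were deposited and by RNA quality. The first class is 4 arrays not brought to the common mean of 500 (vehicle 1 and 3, dexamethasone 1, combination 1). In 3 scaled arrays (replicate 2 of each group) the 3′ to 5′ ratio of Gapdh was 1.07 to 1.11. In the other 2, dexamethasone 3 and combination 3, it was 4.94 and 6.22, a sign of lower RNA quality. This last class holds no vehicle array, so values within a class against vehicle exist for the first 2 only. Each class holds 1 dexamethasone and 1 combination array, so values within a class are differences between single arrays, without replication. In the unscaled class, those against vehicle use the mean of its 2 vehicle arrays. Nothing in the labels says more about separate processing of the arrays.

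The tissue showed strong muscle markers in every array. The summed linear signal of 10 fibre genes, such as creatine kinase Ckm and actin Acta1, was 275575 to 280682 in vehicle, 263072 to 278574 with dexamethasone and 256474 to 276200 with the combination. The summed marker signals of 3 other cell types were lower in every dexamethasone array than in any vehicle array, though not every single marker was. Those of macrophages, smooth muscle, adipocytes, Schwann cells and T or B cells overlapped between vehicle and dexamethasone. The summed signal of 8 fibroblast genes was 28104 to 43562 in vehicle, 4546 to 16518 with dexamethasone and 12954 to 33504 with the combination. All 11 of the fibroblast probe sets had a lower mean with dexamethasone, 9 without overlap, and 1 passed the test. The sum of 4 endothelial genes was 1999 to 2271 in vehicle, 1597 to 1656 with dexamethasone and 1439 to 1665 with the combination. That of 2 erythroid genes was 5369 to 7689, 1157 to 4614 and 2720 to 6056, and no probe set of either list passed. By single probe set, 1 of 4 endothelial (Kdr) and 1 of 2 erythroid (Hbb) were lower with dexamethasone without overlap, against 10.4% of all tested. Whether any of these marker differences has a part in any change below was not tested. In whole muscle, fewer cells of a type and less RNA per cell cannot be told apart.

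Probe sets in the lowest 40% by mean signal were not tested. Of the 89 members, 68 passed this filter, for 46 genes; the other 21 had mean signals of 4.26 to 5.71, against the filter's 5.75. Among them were all probe sets of 14 genes, including Fbxl22, Fbxo2, Fbxo5 and Fbxl7. Fbxl22 had 6.14, 5.22 and 5.95 in vehicle, 4.51, 4.61 and 4.5 with dexamethasone and 6.22, 4.36 and 5.23 with the combination. Its dexamethasone arrays lay below its vehicle arrays, but it was too dim to be tested.

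With dexamethasone 1 probe set of Fbxw7 was called lower, close to the threshold, and no other member passed. Of 68 tested members, 1 passed the test (limma, adjusted p under 0.05), a share of 1.47%, against 1.05% of all 18625 probe sets tested. Fallers were 1 member, against 0.483% of all, and risers 0, against 0.569% of all; at an unadjusted p under 0.05 there were 6 higher and 4 lower (14.7% in all, against 15.5% of all probe sets). A share this close to the background is not a result about the family. The median log2 change of the members was 0.1, with the middle of the distribution between -0.12 and 0.38; over all probe sets tested the median was 0.01, with -0.28 to 0.28. Changes below 0.5 in size made up 54 of 68 members (79.4%, against 73.4% of all).

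**Figure D1:**
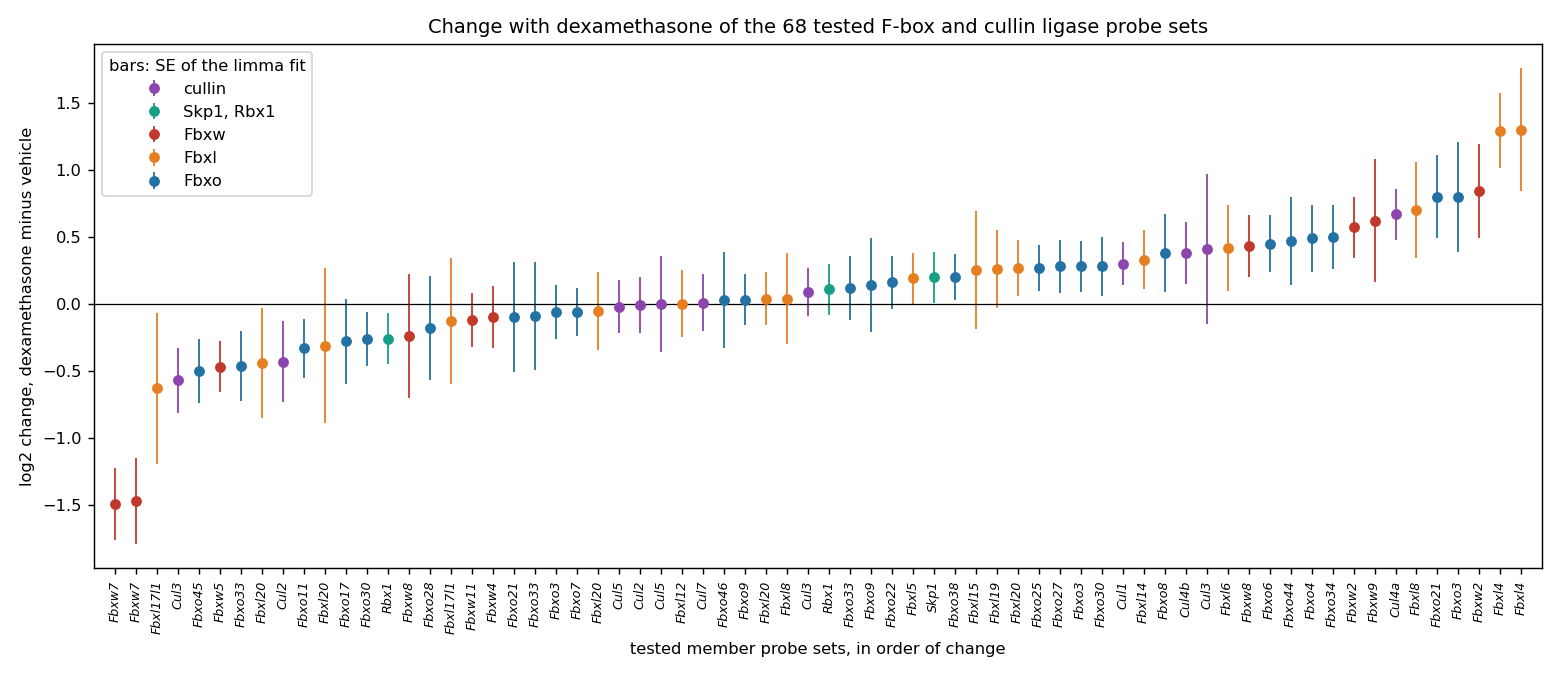
Log2 change with dexamethasone (dexamethasone minus vehicle, vertical axis) of each of the 68 tested member probe sets, in order of change along the horizontal axis and coloured by role; bars are the standard error of the limma fit. The 2 probe sets of Fbxw7 lie at the low end (-1.49 and -1.47) and those of Fbxl4 at the high end (1.29 and 1.3), and the other 64 lie within 1 of 0.

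Fbxw7, the receptor that brings cyclin E, Myc, Jun and Notch to the ligase, was the member that fell. Its probe set 1379332_at read 8.19, 7.78 and 8.37 in vehicle replicates 1 to 3, 6.67, 7.04 and 6.17 with dexamethasone and 7.99, 7.99 and 7.58 with the combination. Each dexamethasone array lay below every vehicle array and every combination array, while vehicle and combination overlapped. The fall was 2.8-fold (log2 change -1.49 ± 0.27 SE, n = 3 per group, limma adjusted p = 0.04). It was -1.61 among the unscaled arrays and -0.74 between the scaled arrays of replicate 2.

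The second probe set of Fbxw7, 1386794_at, read 7.74, 7.9 and 7.77 in vehicle, 6.47, 6.58 and 5.93 with dexamethasone and 7.32, 7.57 and 6.34 with the combination. The dexamethasone arrays were again all below vehicle, but combination replicate 3 lay among them. Its log2 change with dexamethasone was nearly the same size, -1.47 ± 0.32, and did not pass (adjusted p = 0.0683). Within the classes it was -1.28 and -1.32. Both probe sets were lowest in dexamethasone 3, one of the arrays of high 3′ to 5′ ratio. Without both such arrays the changes were -1.2 and -1.22, with adjusted p of 0.0467 and 0.0234.

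The call of 1379332_at was close to the threshold. Fbxw7 passed there in 6 of 20 other settings, with adjusted p between 0.019 and 0.176, and log2 changes from -1.72 to -1.13. Leaving out a single array ended the call in 8 of 9 cases; it stayed without combination replicate 3 (adjusted p = 0.0419). Without vehicle 1, 2 or 3 the adjusted p was 0.141, 0.106 or 0.176, without dexamethasone 1, 2 or 3 it was 0.139, 0.0602 or 0.0578, and without combination 1 or 2 it was 0.056 or 0.0705. The unadjusted p was at most 0.00203 throughout. The second probe set passed in 7 of 20 settings.

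**Figure D2:**
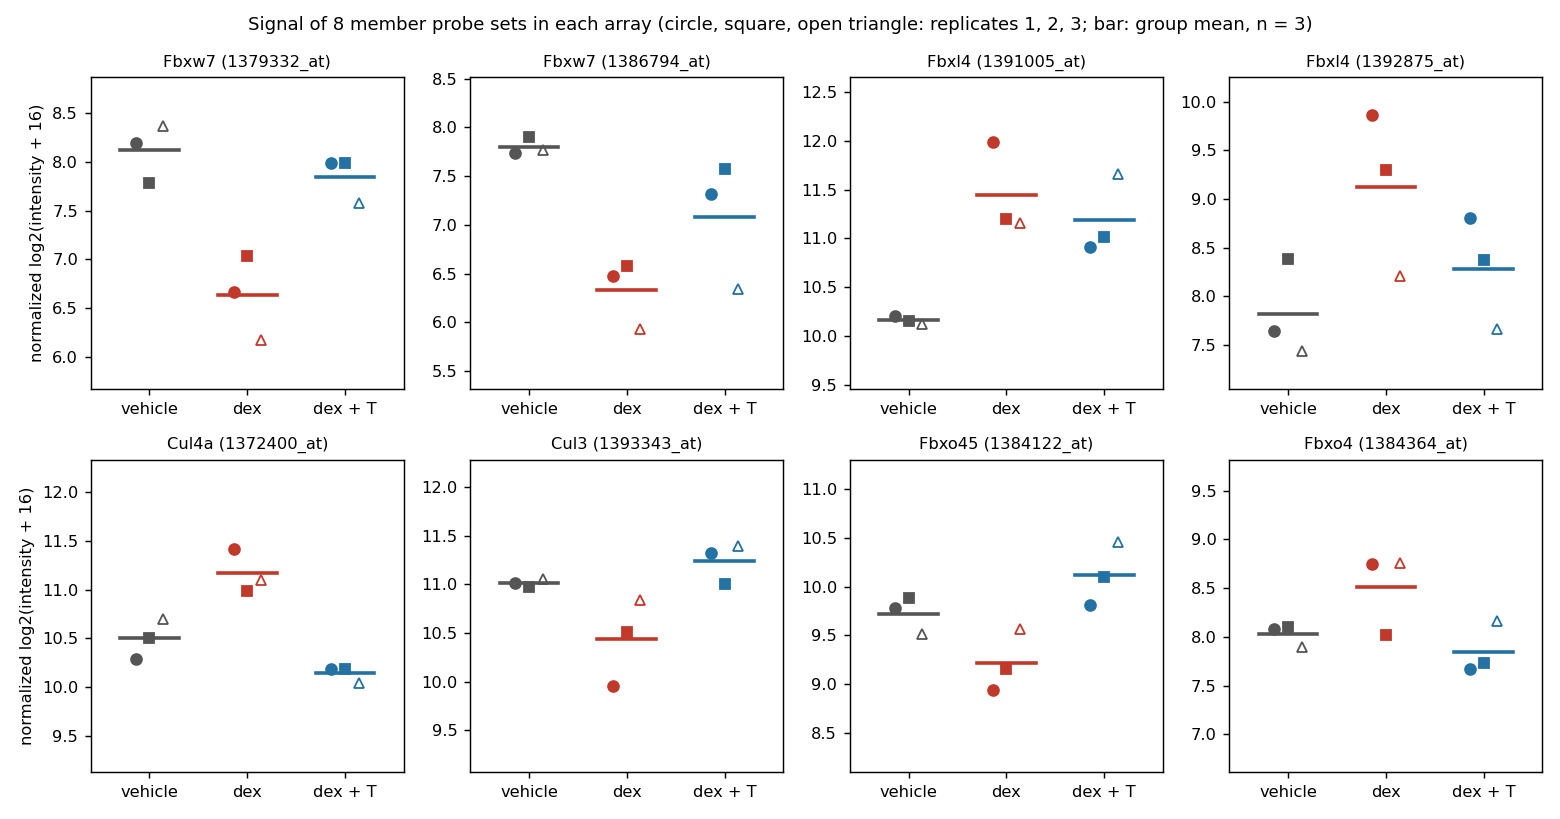
Normalized signal, log2(intensity + 16), of 8 member probe sets in each of the 9 arrays, by group along the horizontal axis; circles, squares and open triangles are replicates 1, 2 and 3, and bars are group means (n = 3). For Fbxw7 1379332_at the dexamethasone arrays (6.17 to 7.04) lie below all others, and for Cul4a the combination arrays (10.04 to 10.19) lie below all others.

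Among the other Fbxw genes no probe set passed. Fbxw2 had positive differences in both of its tested probe sets: 1392469_at read 9.57, 9.76 and 9.53 in vehicle and 9.86, 10.16 and 10.54 with dexamethasone, with no overlap (0.57 ± 0.23, adjusted p = 0.268). The other, 1393407_at, had 0.84 ± 0.35 (adjusted p = 0.291) with arrays that touched. Fbxw5, which brings the Tsc2 tumour suppressor to a Cul4 ligase, read 10.83, 10.95 and 10.72 in vehicle and 10.2, 10.59 and 10.29 with dexamethasone (-0.47 ± 0.19, adjusted p = 0.264). Its groups did not overlap. Fbxw8, partner of Cul7, had 0.43 ± 0.23 in 1367528_at and -0.24 ± 0.46 in 1377901_at (adjusted p = 0.423 and 0.844), so its probe sets differed in sign. Fbxw11, a receptor for phosphorylated Nfkbia and beta-catenin, had -0.12 ± 0.2 (adjusted p = 0.822), Fbxw4 -0.1 ± 0.23 and the dim Fbxw9 0.62 ± 0.46.

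Fbxl4, a mitochondrial F-box protein that restrains the removal of mitochondria, had the most positive log2 differences of the family, none past the threshold. Probe set 1391005_at read 10.2, 10.15 and 10.12 in vehicle, 11.99, 11.2 and 11.16 with dexamethasone and 10.91, 11.01 and 11.66 with the combination. The vehicle arrays lay close together and below every array of both hormone-treated groups. The change with dexamethasone was 1.29 ± 0.28, or 2.45-fold, and did not pass (adjusted p = 0.068). Within the classes it was 1.83 and 1.05.

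The other Fbxl4 probe set, 1392875_at, read 7.65, 8.38 and 7.44 in vehicle and 9.86, 9.3 and 8.21 with dexamethasone. Here dexamethasone 3 lay within the vehicle range. Its change was of like size, 1.3 ± 0.46, with a larger spread (adjusted p = 0.214). Fbxl4 1391005_at passed in 5 of 20 other settings and 1392875_at in 1; without the arrays of high 3′ to 5′ ratio both passed (1.43 and 1.69, adjusted p = 0.0349 and 0.0424).

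The remaining Fbxl genes stayed closer to vehicle. Fbxl5, which senses iron and marks the iron regulator Ireb2, had 0.19 ± 0.19 (adjusted p = 0.684). Fbxl8 1386543_at had 0.7 ± 0.36 (adjusted p = 0.398), with 5.54, 5.63 and 4.75 in vehicle and 6.06, 5.62 and 6.35 with dexamethasone. The brighter Fbxl8 probe set, 1379196_at, had 0.04 ± 0.34 (adjusted p = 0.973). The 5 probe sets of Fbxl20 ran from -0.44 to 0.27. Over the 17 tested Fbxl probe sets the median was 0.19, and 11 of them were above 0.

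No Fbxo probe set passed the test. Over 27 tested probe sets of 20 genes the median log2 difference was 0.14 and the range -0.5 to 0.8, with 17 above 0. In 7 of the 27 all dexamethasone arrays lay above all vehicle arrays (25.9%, against 12.5% of all tested probe sets), and in 0 below (against 10.4% of all). Fbxo21, linked to muscle wasting after denervation, read 5.66, 6.29 and 6.23 in vehicle and 6.84, 6.56 and 7.19 with dexamethasone in 1369972_at (0.8 ± 0.31, adjusted p = 0.253). The dexamethasone arrays lay above all vehicle arrays. Its other probe set, 1398585_at, had -0.1 ± 0.41 (adjusted p = 0.933).

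Fbxo30, a further receptor tied to atrophy, had no common direction either. 1392747_at read 7.4, 7.1 and 7.52 in vehicle and 7.73, 7.56 and 7.57 with dexamethasone (0.28 ± 0.22, adjusted p = 0.586). 1382059_at had -0.26 ± 0.2 (adjusted p = 0.575). Fbxo25 stood out for its tight groups, with 8.01, 7.97 and 8.05 in vehicle against 8.31, 8.27 and 8.23 with dexamethasone, a change of 0.27 ± 0.17 (adjusted p = 0.509). Fbxo34 had 0.5 ± 0.24, Fbxo4, a receptor for cyclin D1, 0.49 ± 0.25, and Fbxo6, which binds sugar chains of misfolded glycoproteins, 0.45 ± 0.21 (adjusted p = 0.37, 0.394 and 0.365).

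Fbxo genes with lower means were fewer. Fbxo45, which works with a large neuronal RING protein at developing synapses, read 9.78, 9.88 and 9.51 in vehicle and 8.94, 9.16 and 9.57 with dexamethasone (-0.5 ± 0.24, adjusted p = 0.372). Dexamethasone 3 overlapped with vehicle. Fbxo33 1379401_a_at had -0.46 ± 0.26 (adjusted p = 0.444), while the other 2 probe sets of Fbxo33 had -0.09 and 0.12. Fbxo7, a parkinsonism gene that binds a proteasome regulator, and Fbxo9, which acts on mTOR complex components, were near 0 (-0.06 ± 0.18, and 0.03 ± 0.19 and 0.14 ± 0.35).

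The scaffold and its common partners did not pass the test in any probe set. Cul4a, scaffold of ligases that use Ddb1, read 10.29, 10.5 and 10.7 in vehicle and 11.42, 10.99 and 11.1 with dexamethasone. The groups did not overlap, and the change was 0.67 ± 0.19 (adjusted p = 0.14), with 0.92 and 0.49 within the classes. Cul1, the scaffold of the F-box ligases, read 11.54, 11.47 and 11.48 in vehicle and 11.9, 11.69 and 11.81 with dexamethasone (0.3 ± 0.16, adjusted p = 0.409), again without overlap. Skp1, which joins Cul1 to the F-box, had 12.48, 12.63 and 12.59 against 12.88, 12.67 and 12.76 (0.2 ± 0.19, adjusted p = 0.651). Its arrays did not overlap either, though the closest pair nearly touched.

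The 3 probe sets of Cul3, scaffold of ligases with BTB-domain receptors, gave 3 different pictures. 1393343_at read 11.01, 10.97 and 11.05 in vehicle and 9.96, 10.51 and 10.84 with dexamethasone, below vehicle in each array (-0.57 ± 0.24, adjusted p = 0.297). 1399132_at had 0.09 ± 0.18 and 1376241_at 0.41 ± 0.56. Cul2 and Cul5, which work with elongins, had -0.43 ± 0.3 and -0.01 ± 0.21, and -0.02 ± 0.2 and 0 ± 0.36. Cul4b had 0.38 ± 0.23, Cul7 0.01 ± 0.21, and Rbx1 0.11 ± 0.19 and -0.26 ± 0.19.

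Counted over the whole family, 13 of 68 tested members had all dexamethasone arrays above all vehicle arrays (19.1%, against 12.5% of all tested probe sets), and 4 had them below (5.88%, against 10.4% of all). The 13 were 1 probe set each of Fbxl4, Fbxo3, Fbxo6, Fbxo21, Fbxo25, Fbxo30, Fbxo34, Fbxo38, Fbxw2, Fbxw8, Skp1, Cul1 and Cul4a, and the 4 were both of Fbxw7 and 1 each of Fbxw5 and Cul3. Probe sets of a gene often disagreed: of 16 genes with more than 1 tested probe set, 7 had a single sign with dexamethasone. Relative to the vehicle mean, the member median was 0.11, 0.1 and 0.19 in dexamethasone replicates 1, 2 and 3, against 0.03, 0 and 0.08 over all tested probe sets in the same arrays. The replicate spread of the members (median SD 0.29) was near that of all tested probe sets (0.34).

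**Figure D3:**
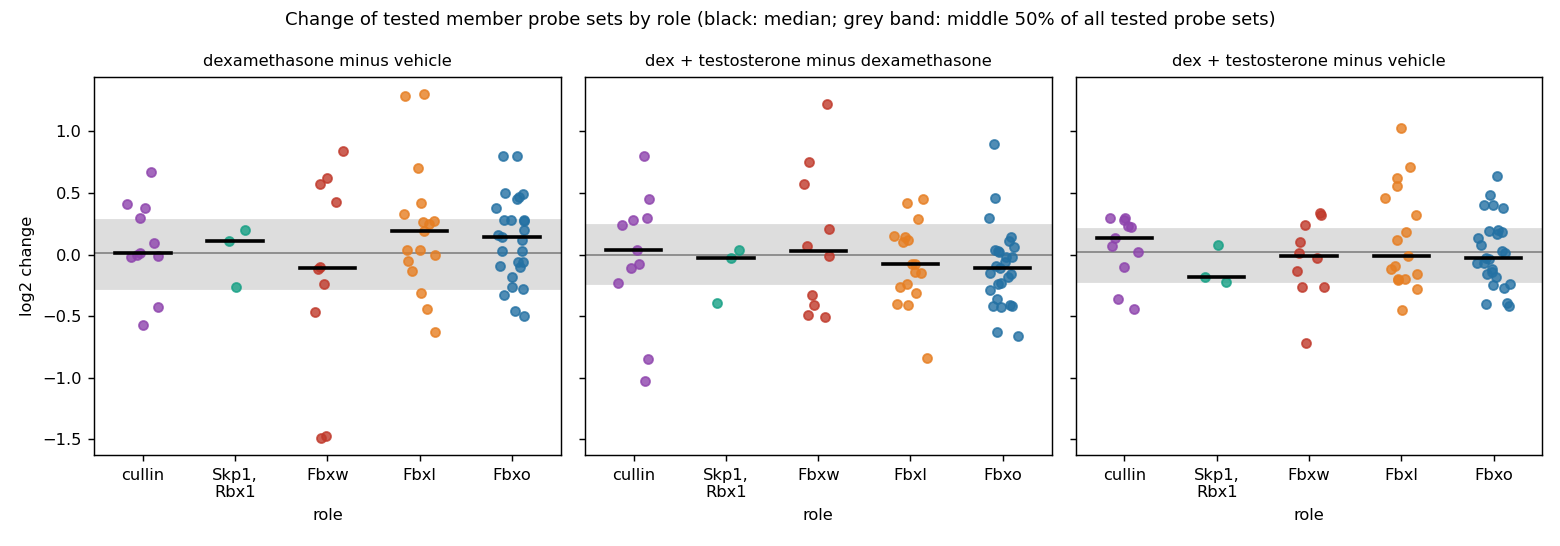
Log2 change (vertical axis) of the 68 tested member probe sets by role, in the 3 comparisons; each point is a probe set, black bars are the role's median, and the grey band holds the middle 50% of all tested probe sets. The widest spread with dexamethasone is among the 10 Fbxw probe sets (-1.49 to 0.84), and medians of all roles lie between -0.18 and 0.19.

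Adding testosterone to dexamethasone changed no member past the threshold. The count was 0 of 68 (limma, adjusted p under 0.05; 0.113% of all passed), and 6 at an unadjusted p under 0.05, 4 higher and 2 lower (8.82%, against 11% of all). All 3 combination arrays lay above all dexamethasone arrays in 3 members (4.41%, against 7.24% of all) and below them in 6 (8.82%, against 7.35% of all). The median change was -0.08, against 0 over all. The dexamethasone arrays are shared with the comparison before, so the signs in both are not independent.

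Cul4a had the lowest p of the family here. It read 11.42, 10.99 and 11.1 with dexamethasone and 10.19, 10.19 and 10.04 with the combination, which was also below each vehicle array. Among the tested members, only Cul4a had 3 groups free of overlap with one another. Of the untested ones, the dim Fbxl7 1378992_at (4.09 to 4.86) did too. How many of all tested probe sets had 3 such groups was not counted, so this does not set Cul4a apart. The difference was -1.03 ± 0.19, or 2.04-fold (adjusted p = 0.0923), with -1.22, -0.8 and -1.06 in the 3 classes. Cul4a passed in 3 of 20 other settings, with adjusted p between 0.0253 and 0.293. Against vehicle the combination differed by -0.36 ± 0.19 (adjusted p = 0.841).

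Fbxw7 stood higher with the combination than with dexamethasone in both probe sets, without passing. The difference was 1.22 ± 0.27 in 1379332_at (adjusted p = 0.122), with 1.32, 0.95 and 1.4 in the 3 classes, and 0.75 ± 0.32 in 1386794_at (adjusted p = 0.433), with 0.85, 0.99 and 0.41. Fbxo45 read 9.81, 10.1 and 10.46 with the combination, above each dexamethasone array (0.9 ± 0.24, adjusted p = 0.204), with 0.87, 0.94 and 0.89 in the classes. Cul3 1393343_at read 11.32, 11 and 11.39, also above each dexamethasone array (0.8 ± 0.24, adjusted p = 0.254). The other Cul3 probe sets had 0.04 ± 0.18 and -0.85 ± 0.56, the last with a single low array, 4.12 in combination replicate 3.

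Members lower with the combination than with dexamethasone included several of the small Fbxo differences. Fbxo4 read 7.67, 7.73 and 8.16, against 8.75, 8.02 and 8.76 with dexamethasone (-0.66 ± 0.25, adjusted p = 0.371). Fbxo8, which carries an Arf-activating domain, read 8, 8.59 and 8.29 against 8.79, 8.84 and 9.13, with no overlap (-0.63 ± 0.29, adjusted p = 0.472). Fbxo3 1389345_at had -0.42 ± 0.19 and Skp1 -0.39 ± 0.19 (adjusted p = 0.47 and 0.5). Cul1 had -0.23 ± 0.16 and Fbxo25 -0.24 ± 0.17, neither with overlap (adjusted p = 0.673 and 0.691). The Fbxl4 probe sets had -0.26 ± 0.28 and -0.84 ± 0.46 (adjusted p = 0.819 and 0.563).

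Both hormones against vehicle left no member past the threshold: 0 of 68, where 0% of all probe sets passed (limma), and 2 members at an unadjusted p under 0.05 (2.94%, against 6.12% of all). Combination arrays lay above all vehicle arrays in 4 members (5.88%, against 7.53% of all) and below them in 5 (7.35%, against 5.79% of all). The member median was 0.01. Fbxl4 1391005_at had the largest difference, 1.03 ± 0.28 (adjusted p = 0.802), with 0.75 and 0.85 within the classes. The other Fbxl4 probe set, 1392875_at, had 0.46 ± 0.46 with overlap (adjusted p = 0.903), and 1.27 and -0.01 within the classes. Fbxw7 1386794_at had the most negative difference, -0.72 ± 0.32 (adjusted p = 0.815). Fbxw7 1379332_at had -0.26 ± 0.27. Fbxl19 1376423_at had 0.71 ± 0.29 (adjusted p = 0.815) from dim signals of 5.29 to 6.59. Fbxl8 1386543_at and Fbxl6, also dim, had 0.62 ± 0.36 and 0.56 ± 0.32 (adjusted p = 0.849 and 0.843). The brighter Fbxl8 probe set, 1379196_at, had 0.32 ± 0.34. Fbxo7 and Rbx1 1388538_at, both without overlap, had -0.24 ± 0.18 and -0.22 ± 0.19. The brighter Rbx1 probe set, 1388333_at, went the other way, with 0.08 ± 0.19 and overlap.

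The wider machinery of cullin-RING ligases was followed in a list of 76 genes outside the family rule, of which 64 had a tested probe set (101 in all). With dexamethasone 1 probe set rose and 0 fell (0.99% called, against 1.05% of all), and with the combination 0 passed against either group, with 14 against dexamethasone and 6 against vehicle at an unadjusted p under 0.05 (13.9% and 5.94%, against 11% and 6.12% of all). The one that rose was Asb11, a SOCS-box receptor of Cul5 ligases made in muscle. It read 11.04, 10.61 and 11.2 in vehicle, 12.59, 12.13 and 12.45 with dexamethasone and 11.91, 11.47 and 12.03 with the combination, and its 3 groups did not overlap. The rise was 2.72-fold (1.44 ± 0.24, limma adjusted p = 0.0324), with 1.47 and 1.53 within the classes. Asb11 passed in 10 of 20 other settings (adjusted p 0.00761 to 0.129), and lost its call without vehicle 1, 2 or 3 (0.12, 0.129, 0.127), dexamethasone 1 or 2 (0.128, 0.0602) or combination 2 (0.0563).

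Among the regulators and other receptors, Keap1, the Cul3 receptor for Nfe2l2, read 9.55, 9.35 and 9.37 in vehicle, 10.65, 10.22 and 10.65 with dexamethasone and 9.53, 9.59 and 10.02 with the combination in 1370066_at. Dexamethasone arrays lay above all others (1.08 ± 0.21, adjusted p = 0.0523). The second Keap1 probe set read 4.42 in both arrays of high 3′ to 5′ ratio and 6.86 to 9.08 in the others. Dcun1d1, which helps attach Nedd8 to cullins, was higher in each combination array than in any vehicle or dexamethasone array in 2 probe sets (0.81 ± 0.2 and 0.63 ± 0.19 against dexamethasone, adjusted p = 0.163 and 0.24). A dimmer probe set of Dcun1d1 had 0.2 ± 0.34. For elongin C, the Eloc probe set 1391670_at had 0.82 ± 0.19 against dexamethasone (adjusted p = 0.134). Another Eloc probe set is not described here. The 35 tested probe sets of the Nedd8 cycle and the COP9 signalosome had a median of -0.03 with dexamethasone, and none passed.

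Transcripts of proteins that these ligases are known to mark were set beside them as a description; transcript levels do not show protein turnover. For Fbxw7, Myc read 6.34, 6.59 and 6.41 in vehicle, 7.34, 7.06 and 7.36 with dexamethasone and 6.17, 6.66 and 5.8 with the combination (0.81 ± 0.24 with dexamethasone, adjusted p = 0.146). The 3 Jun probe sets had 0.92 ± 0.33 (adjusted p = 0.221), 0.73 ± 0.3 and 0.31 ± 0.35, those of Notch1 0.06 ± 0.2 and 0.23 ± 0.65, and Ccne1, cyclin E, was below the filter. Irs1, the insulin receptor substrate and a target of Fbxw8 with Cul7, fell 2.7-fold (log2 change -1.43 ± 0.26, adjusted p = 0.0396), and Nfkbia, a target of Fbxw11, rose by 1.46 ± 0.28 (adjusted p = 0.0476). Ctnnb1, beta-catenin and also a target of Fbxw11, had -0.48 ± 0.19 without overlap (adjusted p = 0.278), -0.15 ± 0.19 and 0.05 ± 0.29 in its 3 tested probe sets. Nfe2l2 had 0.54 ± 0.19 (adjusted p = 0.219), the Skp2 target Cdkn1b 0.36 ± 0.3, and Ireb2, the target of Fbxl5, -0.24 ± 0.51. The last listed substrates, Cry1, Cry2 and Hif1a, had 0.19 ± 0.21, 0.07 ± 0.26 and -0.35 ± 0.25 in their tested probe sets. Only Irs1 and Nfkbia passed with dexamethasone, both close to the threshold. Of all tested probe sets 1.05% passed, but the substrate list is short and was chosen with earlier results of these data known. The count is therefore not a result about substrates. Their values in the other settings are not given here.

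**Figure D4:**
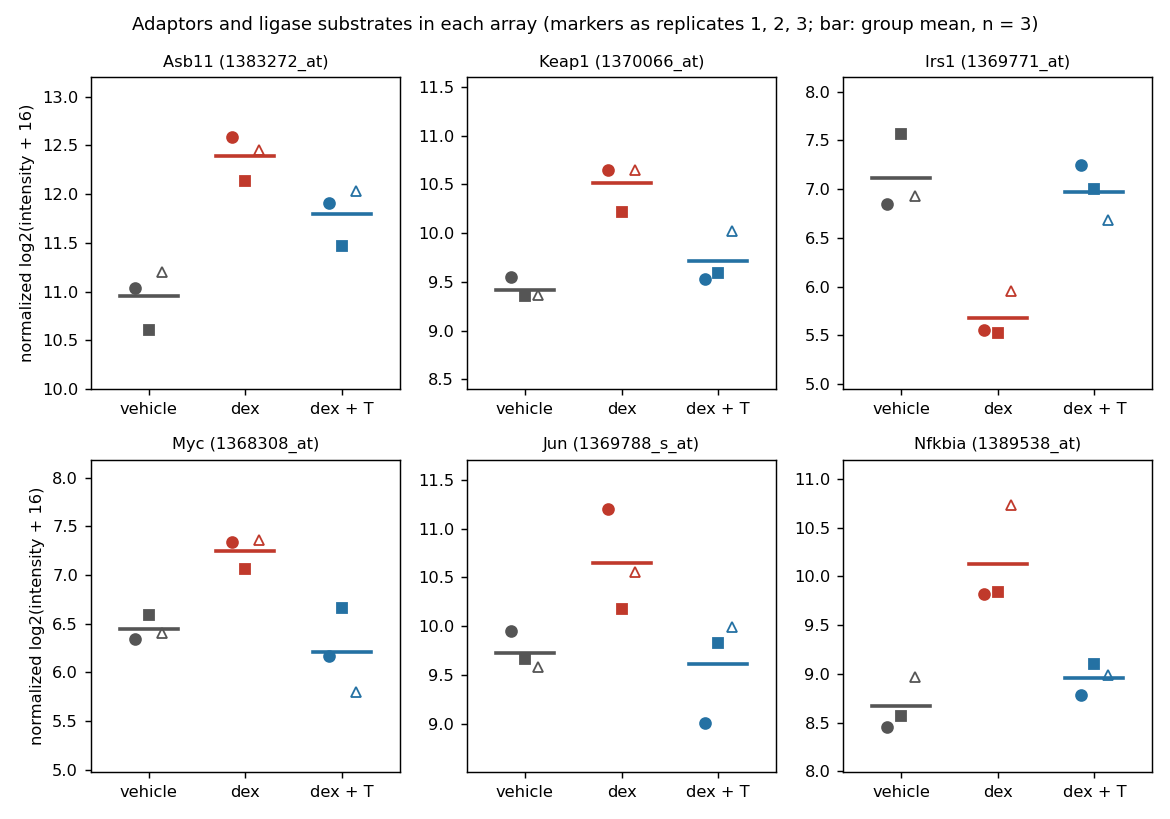
Normalized signal, log2(intensity + 16), of the receptors Asb11 and Keap1 and of 4 ligase substrates in each array, by group along the horizontal axis; circles, squares and open triangles are replicates 1, 2 and 3, and bars are group means (n = 3). Dexamethasone arrays lie above all others for Asb11 (12.13 to 12.59) and Keap1 (10.22 to 10.65) and below all others for Irs1 (5.53 to 5.96).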

How the data were processed

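RNA of 9 gastrocnemius muscles was measured on Affymetrix rat arrays, 1 per animal. The authors deposited linear signal intensities per probe set; the signal algorithm is not given in the sources used here. Deposited intensities of 5 arrays had a trimmed mean of 500 and those of 4 did not, so all were normalized again: a pseudocount of 16 was added, log2 taken and arrays quantile normalized. The 57 control probe sets were left out, and probe sets under the 40th percentile of mean signal were not tested. limma 3.58.1 (R 4.3.3, lmFit and eBayes) fitted all 3 groups together, with Benjamini-Hochberg adjustment over 18625 probe sets and a threshold of 0.05. It was also run on simulated data, with changes larger than that of any member and without the array classes. That run does not show how well changes of the size reported here are found. Values after ± are standard errors of that fit. Of 31042 probe sets, 20826 had 1 gene symbol in the platform annotation, 436 several and 9780 none.

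Genes were named by rule: the cullins, Skp1 and Rbx1; a set of F-box genes known from muscle or metabolism; every member past the threshold; the 6 higher and 6 lower members of lowest p in each comparison; members whose groups never overlapped; and other pathway genes past the threshold or, with none, the 3 of lowest p. Other genes were named after their values were seen. Members and lists were chosen with earlier results of these data known. Alternatives changed the normalization, pseudocount, filter, variance model, groups fitted, blocks and arrays. Nothing in the labels says more of how the animals were kept, so p-values measure the spread between these arrays, whose number limits the precision.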

Additional observations from a re-analysis of the deposited data

How the results depend on the processing

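The count of members called with dexamethasone was 1. It was 0 with scaling only, a pseudocount of 1 or no filter, 3 with a pseudocount of 64, a filter at the 60th percentile or the trend and robust options, and 4 without the arrays of high 3′ to 5′ ratio. Leaving out 1 array gave 0 to 3, with 3 only without combination replicate 3. The count for the other pathway genes, also 1, was 0 with a pseudocount of 1, no filter or only the 2 groups compared, 3 with a pseudocount of 64, 4 with the 60th percentile and 5 with trend and robust, and 0 to 2 with 1 array left out. With the combination against dexamethasone, 1 member (Cul4a) was called with a pseudocount of 64, the 60th percentile or trend and robust.

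The member median of 0.1 with dexamethasone was 0.18 with 1 probe set per gene and 0.04 to 0.17 with 1 array left out. That of -0.08 for the combination against dexamethasone was -0.02 with no filter and -0.12 to -0.03 with 1 array left out. That of 0.01 against vehicle was -0.08 with scaling only, 0.07 with the array class as a block, 0.08 without the arrays of high ratio and -0.04 to 0.08 with 1 array left out.

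Over all probe sets the 196 calls with dexamethasone ranged from 1 to 510, the 21 of the combination against dexamethasone from 0 to 149, and those against vehicle stayed at 0. Of 2832 values of named genes under these alternatives, 24 lost a call, 20 gained one and 0 called values changed sign.

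Arrays of equal replicate number are not said to be paired, and their deviations correlated at -0.2 to 0.59. The highest value was between dexamethasone 3 and combination 3, the arrays of high 3′ to 5′ ratio. Arrays of unlike number correlated at -0.54 to 0.35. Replicate number follows array class except in vehicle 3, so pairing and array class cannot be told apart here. With the replicate number as a block, 0 members, 0 other pathway genes and 13 of all probe sets were called with dexamethasone. The causes were not tested.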
